A study of Mus musculus with 9 samples.

Results

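miR-1983 (mmu-miR-1983 in the deposited table) is a short RNA listed among the mature microRNAs (miRNAs) of the mouse, and it is 1 of the 1155 entries in a table of small RNA counts from mouse colon. It was taken by name, after its values in these libraries had been seen, because it was higher in mice given royal jelly acid (RJA). Its levels and changes are therefore given as a description, with no p-value of its own, and whether it was among the entries called in a fit over the whole table is stated as a fact of that fit and not as support. The study sequenced small RNA from the colon of wild-type C57BL/6J mice, with 3 samples in each of 3 groups, 9 in all. The Control mice had normal food and plain water. The DSS mice drank water with 2.5% (w/v) dextran sulfate sodium (DSS), a sulfated sugar polymer that injures the colon lining. The DSS_RJA mice drank the same DSS water and received RJA by gavage every day, at 10 mg/kg body weight in 0.2 mL. The labels record gavage for DSS_RJA alone, so RJA and gavage cannot be told apart, and the study had no group given RJA without DSS. The labels give no age for the mice. The labels do not tie a sample to an animal, so the spread between samples may in part be technical.

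A usual miRNA is cut from a hairpin in a longer transcript, first in the nucleus by Drosha with Dgcr8 and then in the cytoplasm by Dicer. A transfer RNA (tRNA) is made differently: RNA polymerase III reads a short gene with a promoter inside it, stops at a run of U, and the primary transcript is trimmed at its 5′ end by RNase P and at its 3′ end by RNase Z before the bases CCA are added. Pieces of tRNA and of the trimmed 3′ trailers are common in small RNA libraries. miR-1983 was reported from mouse embryonic stem cells, as a small RNA that needs Dicer but not Dgcr8, from an isoleucine tRNA gene whose transcript can fold into a long hairpin.

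The sequences show how the entry sits on a tRNA gene, and they come from the RefSeq annotation of GRCm38.p6, which may not be the build the authors used. In the first line the capitals mark the seed (bases 2 to 8, the part of a miRNA that chooses targets), in the second line the bases that lie inside the tRNA gene, in the third the tRNA gene within the whole precursor, and in the fourth miR-1983 within it.
miR-1983, seed: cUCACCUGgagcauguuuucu
miR-1983, tRNA part: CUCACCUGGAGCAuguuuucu
Mir1983 precursor, tRNA gene: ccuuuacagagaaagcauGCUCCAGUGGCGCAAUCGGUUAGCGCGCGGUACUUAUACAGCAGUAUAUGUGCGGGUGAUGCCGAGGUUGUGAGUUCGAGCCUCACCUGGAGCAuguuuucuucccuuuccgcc
Mir1983 precursor, miR-1983: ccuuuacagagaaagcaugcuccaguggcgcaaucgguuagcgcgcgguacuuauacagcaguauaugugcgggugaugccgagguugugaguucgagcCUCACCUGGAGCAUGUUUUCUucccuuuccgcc

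The Mir1983 precursor occupied chromosome 13 from 21896918 to 21897049 on the minus strand, and miR-1983 itself from 21896930 to 21896950. RefSeq placed the gene n-TItat14, a tRNA for isoleucine with the anticodon UAU, from 21896938 to 21897031, inside the precursor. It was the only n-TItat gene among 430 tRNA genes in that annotation. The annotation used here gives no strand for this tRNA gene, and the pairing and motifs described next are read on the strand of miR-1983. The locus lay in a cluster of tRNA and histone genes: within 100 kb on either side, 25 of 39 annotated genes were tRNAs. Counted from the 5′ end of the 132-base precursor, the tRNA gene took bases 19 to 112 and miR-1983 bases 100 to 120. Thus 13 of its 21 bases (61.9%) were the 3′ end of the tRNA gene and the other 8 lay past that end, in the trailer that RNase Z removes. A finished tRNA would carry CCA where miR-1983 carries the trailer bases.

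**Figure D1:**
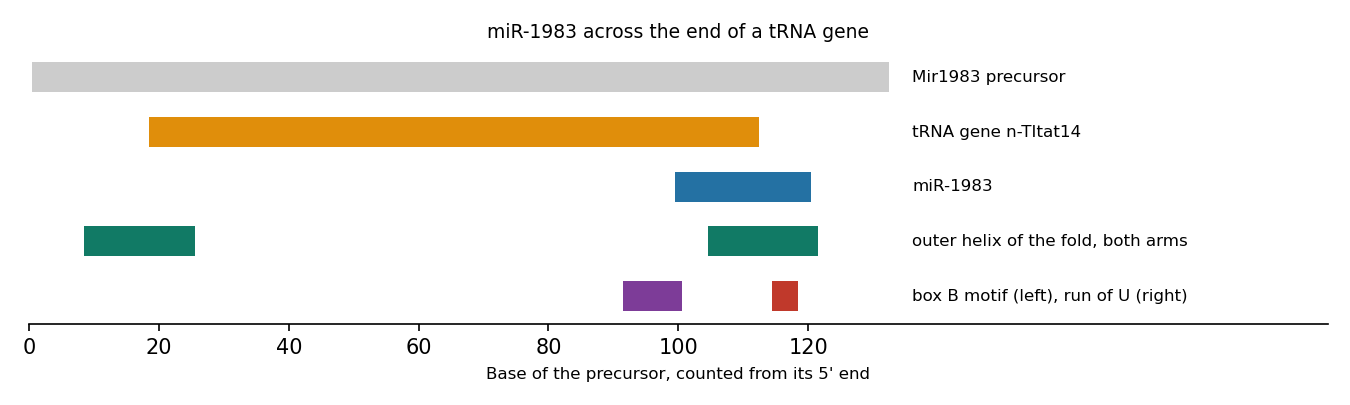
Map of the Mir1983 precursor, with the base counted from its 5′ end on the horizontal axis. The bars show the 132-base precursor, the tRNA gene (bases 19 to 112), miR-1983 (bases 100 to 120), both arms of the outer helix of the predicted fold (bases 9 to 25 and 105 to 121), and the motifs GUUCGANNC (bases 92 to 100) and UUUU (bases 115 to 118). miR-1983 crosses the right end of the tRNA gene.

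The precursor also carried the usual marks of a tRNA gene. GUUCGANNC, the core of the box B promoter found inside tRNA genes, was found once on the RNA strand, at bases 92 to 100, and 5 of the 1005 hairpins in the RefSeq table (0.498%) held it. UUUU, the run that ends transcription by RNA polymerase III, began 2 bases past the tRNA gene, inside miR-1983. This run ended at base 118 and miR-1983 at base 120, so a transcript ended in the run would lack the last bases of miR-1983. Where transcription ended was not tested. Short runs of this kind are common, and 25.1% of the hairpins held UUUU somewhere. The precursor was long for an annotated miRNA hairpin: 10 of the 1005 were longer, and the median length was 79 bases. In the fold predicted with RNAfold (minimum free energy -52.7 kcal/mol), an unbroken helix of 17 pairs joined bases 9 to 25 with bases 105 to 121. Of these pairs, 7 joined the first and last bases of the tRNA gene, which pair in the acceptor stem of a tRNA. A further 9 joined the leader ahead of the tRNA gene to the trailer, and 1 joined a leader base to the last base of the gene. In this fold 20 of the 21 bases of miR-1983 were paired, 9 of them with leader bases. A predicted fold and a motif match are descriptions and do not show how the RNA was made.

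The full miR-1983 sequence was found in 1 of the 141767 GENCODE M21 transcripts, Mir1983 itself, and in 1 RefSeq hairpin. Those transcripts hold no tRNA genes as such, so copies in other tRNA genes were not searched. Of the 1738 mature miRNA sequences in the RefSeq table, 1 overlapped an annotated tRNA gene, and it was miR-1983. By the same search 6 overlapped small nucleolar RNA genes and 6 overlapped the guide RNA genes of Cajal bodies. The deposited table gives counts per entry and not the reads, so the ends of the reads counted as miR-1983, and any share from finished tRNA, were not tested.

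The seed of miR-1983 was shared with 1 other sequence in the RefSeq table, miR-412-3p, a miRNA of the imprinted Dlk1-Dio3 region on chromosome 12 (109743340 to 109743359, plus strand). It is shown with its seed in capitals because any target rule based on the seed treats both alike.
miR-412-3p, seed: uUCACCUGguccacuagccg
miR-412-3p had 1, 0 and 2 counts in the Control libraries, 2, 1 and 8 in DSS, and 0, 1 and 1 in DSS_RJA. It did not pass the filter on low counts, and in each library it had fewer counts than miR-1983.

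The 9 libraries held 5985153 to 8280980 counts each. miR-143-3p, a miRNA of smooth muscle, took 66.4% to 75.5% of them, so the depth left for scarce entries was much lower. The low-count filter left 433 of the 1155 entries, which were fitted and tested together. Markers of the labelled tissue were present: the epithelial miRNA miR-192-5p had 28704 to 399037 counts. No pair of libraries within a group agreed within counting error, with a chi-square per degree of freedom of at least 40.2.

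miR-1983 was detected in all 9 libraries, at 9 to 114 counts each and 394 counts in all. At its highest it took 0.00185% of a library. Ranked by mean CPM (counts per 1000000, with library sizes scaled by the TMM method), it was entry 281 of the 433 tested, at 6.62 CPM. Detection in every library was usual at this level, as all 50 tested entries nearest to it in abundance also had counts in every library. It passed the filter through the DSS libraries as well as through DSS_RJA, and Control 2 was the library that fell below the filter's level of 1.42 CPM.

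In Control colon miR-1983 had 14, 9 and 20 counts in samples 1, 2 and 3. The deposited TPM (each count divided by the library's total, per 1000000, with no term for length) were 1.86, 1.09 and 2.83. These were the lowest values of the series and their counting intervals overlapped one another.

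In DSS colon it had 26, 47 and 22 counts, or 3.55, 7.28 and 2.91 TPM. DSS 2 stood above the other two. Its exact 95% interval, 5.35 to 9.68 TPM, did not reach that of DSS 1, 2.32 to 5.20 TPM, or that of DSS 3, 1.82 to 4.40 TPM. DSS 3 and Control 3 were nearly alike, at 2.91 and 2.83 TPM.

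In DSS_RJA colon it had 47, 95 and 114 counts, or 7.85, 15.4 and 18.5 TPM. All 3 libraries lay above the other 6. DSS_RJA 2 and DSS_RJA 3 were above every library of the other groups, with intervals of 12.5 to 18.8 and 15.3 to 22.2 TPM. DSS_RJA 1 stood apart from them, with an interval of 5.77 to 10.4 TPM that overlapped the interval of DSS 2. Both of these libraries had 47 counts, and they differed in TPM only through the library totals. The intervals are exact binomial (Clopper-Pearson) ones and cover counting error only, since the PCR copies of a molecule carried no identifier and were counted as separate reads.

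**Figure D2:**
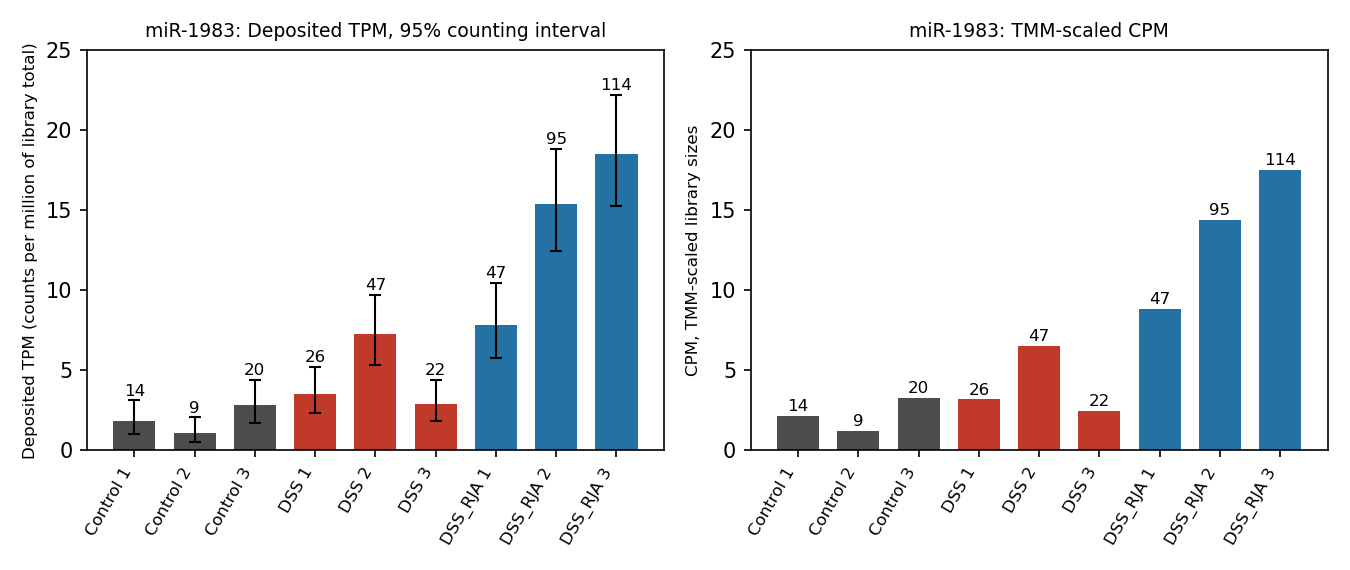
Level of miR-1983 in each of the 9 libraries, as deposited TPM with exact 95% binomial intervals (left) and as TMM-scaled CPM (right); the number over each bar is the count. The 3 DSS_RJA libraries, at 7.85 to 18.5 TPM, are above the other 6, and DSS_RJA 1 is close to DSS 2.

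The mean level was 13.9 ± 5.47 TPM in DSS_RJA, 4.58 ± 2.36 TPM in DSS and 1.93 ± 0.875 TPM in Control (SD, n = 3). With TMM scaling they were 13.6 ± 4.41, 4.06 ± 2.18 and 2.21 ± 1.03 CPM (SD, n = 3). The order of the groups was the same on both scales, with Control lowest and DSS_RJA highest. DSS and Control, neighbours in this order, were not separated on both scales. On TPM the lowest DSS library was above the highest Control library, by 0.0729 TPM, a separation that 38.3% of tested entries showed in this direction. On TMM-scaled CPM they overlapped, since the lowest DSS library was at 2.45 and the highest Control library at 3.27, while 18.9% of tested entries had DSS above Control with no overlap on that scale.

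Relative to DSS, the mean of DSS_RJA was 3.04 times as high in TPM and 3.34 times as high in TMM-scaled CPM. The log2 fold change fitted by edgeR to all 9 libraries was 1.76 ± 0.43 (approximate standard error). The lowest DSS_RJA library was 1.08 times the highest DSS library in TPM and 1.35 times in TMM-scaled CPM. Entries with all DSS_RJA libraries above all DSS libraries made up 6% of the 433 tested on CPM and 3.7% on TPM. In this comparison 1 of 433 entries passed edgeR's quasi-likelihood test (0.231%; threshold of 0.05 on p after Benjamini-Hochberg adjustment), and it was not miR-1983.

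Relative to Control, the mean of DSS_RJA was 7.22 times as high in TPM and 6.15 times as high in TMM-scaled CPM, with a log2 fold change of 2.64 ± 0.47. The lowest DSS_RJA library was at 2.77 times the highest Control library in TPM. Groups separated in this direction in 10.2% of tested entries on CPM and 19.2% on TPM. No entry of the 433 (0%) passed the edgeR test in this comparison, miR-1983 included. There were 62 entries at an unadjusted p under 0.05, and DESeq2 called 2 and limma-voom 0. miR-1983 was 1 of the 2 that DESeq2 called here and was also called by DESeq2 relative to DSS. As it was chosen for these values, those calls are no support for them.

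Relative to Control, DSS had a log2 fold change of 0.88 ± 0.48 for miR-1983, and a mean 2.37 times as high in TPM and 1.84 times as high in TMM-scaled CPM. The edgeR test called 17 of 433 entries in this comparison (3.93%), of which miR-1983 was not one. The DSS libraries also serve as the reference for DSS_RJA, and the Control libraries serve 2 comparisons, so the 3 changes are not independent of each other.

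The rule for the gene asked where its change ranked among entries of like abundance. The 50 tested entries nearest to it in mean log2 CPM had mean log2 CPM of 1.87 to 2.80, against 2.33 for miR-1983. In DSS_RJA relative to DSS its log2 fold change was the highest of the 51, where the neighbours ran from -0.81 to 1.51 with a median of -0.07. In DSS_RJA relative to Control it was again the highest of the 51, and the neighbours ran from -1.19 to 1.18 with a median of 0.21. In DSS relative to Control it ranked 8 of 51, and the neighbours reached 1.74. miR-1983 was chosen for its high values in DSS_RJA, so its ranks in the comparisons with DSS_RJA are no finding. The mean that set the neighbours included the DSS_RJA libraries, and in Control alone the mean log2 CPM of miR-1983 was 1.23.

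**Figure D3:**
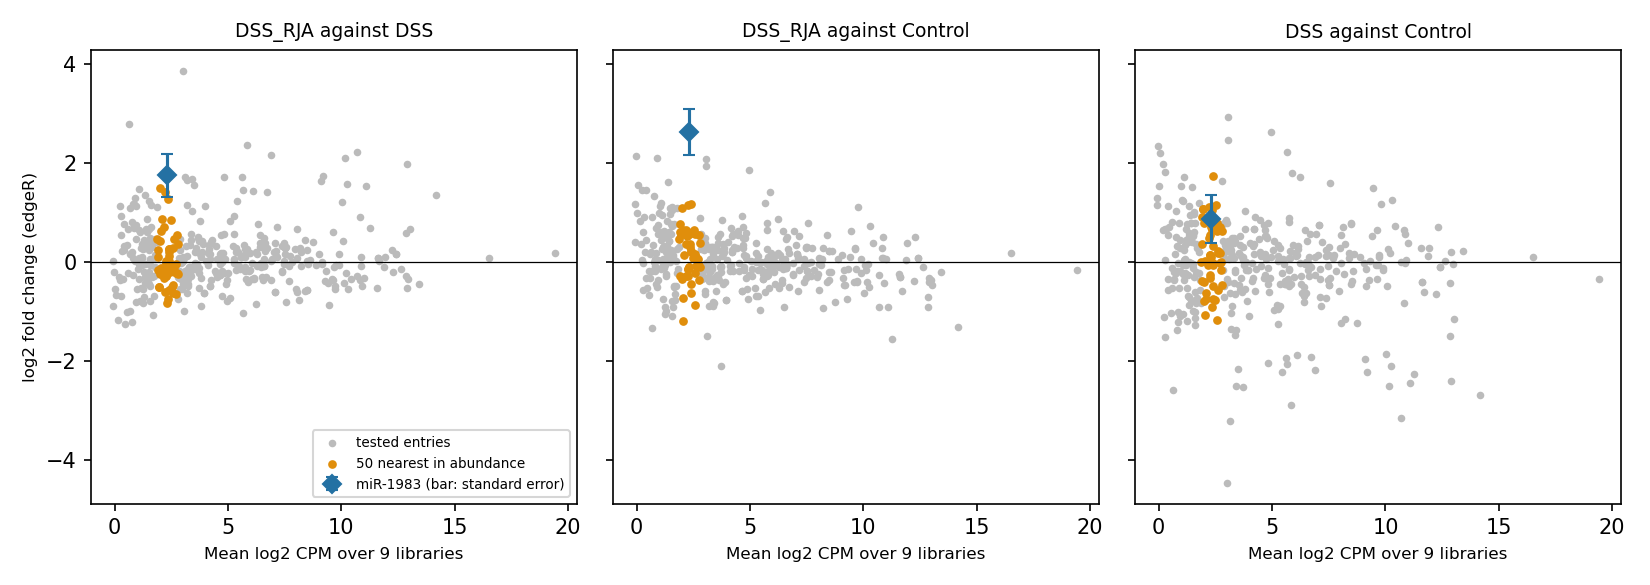
log2 fold change (vertical axis) against mean log2 CPM (horizontal axis) for the 433 tested entries in the 3 comparisons, with the 50 entries nearest to miR-1983 in abundance in orange and miR-1983 as a blue diamond with its standard error. miR-1983 is above all of its 50 neighbours in both comparisons with DSS_RJA, at 1.76 and 2.64, and within their range in DSS against Control, at 0.88.

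Neighbours with the next largest changes relative to DSS had fewer counts apart. miR-299a-3p, of the Dlk1-Dio3 region, had 23, 16 and 20 counts in DSS and 33, 26 and 69 in DSS_RJA, a log2 fold change of 1.51 ± 0.38. miR-6538 followed at 1.42 ± 0.53 and miR-18a-5p, a growth-linked miRNA of the miR-17/92 cluster, at 1.28 ± 0.26. miR-191-3p, the scarce arm of miR-191, was at 1.12 ± 0.30 and miR-1968-5p at 0.88 ± 0.52. The lowest neighbours were miR-335-3p (-0.81), miR-129-1-3p (-0.75) and miR-877-5p (-0.65).

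Relative to Control the neighbours next to miR-1983 were further below it. miR-342-5p, from an intron of the leukocyte gene Evl, was at 1.18 ± 0.47, miR-6538 at 1.17 ± 0.53 and miR-299a-3p at 1.11 ± 0.38. An entry that the authors numbered themselves was at 0.78 ± 0.45 and miR-411-3p at 0.66 ± 0.33. The lowest were miR-181c-3p (-1.19), miR-378b (-0.87) and miR-30c-1-3p (-0.72).

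Among all 433 tested entries, miR-1983, chosen for its high values in DSS_RJA, had the largest log2 fold change in DSS_RJA relative to Control. The next were miR-7676-3p at 2.15 ± 0.98 and miR-7688-5p at 2.11 ± 0.67, both scarcer, with means of 0.919 and 2.07 CPM. Relative to DSS it ranked 8 of 433. The 7 entries above it were miR-194-1-3p, both arms of miR-215, both arms of miR-200b, miR-200c-5p and miR-429-3p, all known from intestinal or other epithelium and named here after their values were seen. These entries had negative log2 fold changes in DSS relative to Control, from -4.45 to -2.18, where miR-1983 was at 0.88. In DSS_RJA relative to Control they lay between -0.91 and 0.21, where miR-1983 was at 2.64.

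Entries with all 3 DSS_RJA libraries above the other 6 libraries were few. There were 4 of 433 on TMM-scaled CPM (0.924%) and 7 on TPM (1.62%). On CPM the others were miR-339-3p, miR-7688-5p and miR-93-3p, with log2 fold changes relative to Control of 0.60, 2.11 and 0.91. On TPM, miR-1983 was the 1 entry (0.231%) whose groups lay in the order Control, DSS, DSS_RJA with no overlap between neighbours. On TMM-scaled CPM no entry (0%) had that order, since DSS and Control overlapped for miR-1983. The entry was chosen for its high values in DSS_RJA, after its values in these libraries had been seen, so this order is no finding.

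The entries most like miR-1983 in profile were found from log2 CPM over the 9 libraries, after each entry's own mean was taken away, by the mean absolute difference from miR-1983. The nearest was miR-299a-3p, with a mean absolute difference of 0.68 on the log2 scale, and the median over the 432 other entries was 1.06. It was highest in DSS_RJA 3, as miR-1983 was, but it had 17 to 25 counts in Control and 16 to 23 in DSS. miR-671-5p, which is known to cut the circular RNA Cdr1as, came next at 0.70. It had 8, 11 and 7 counts in Control, 31, 14 and 16 in DSS and 20, 28 and 26 in DSS_RJA. The others were miR-421-3p (0.73), miR-411-3p of the Dlk1-Dio3 region (0.76) and miR-8114 (0.76). All were scarce. Their log2 fold changes in DSS_RJA relative to Control were 0.66 to 1.62, against 2.64 for miR-1983. Relative to DSS they were 0.07 to 1.51, against 1.76, and that of miR-299a-3p, at 1.51 ± 0.38, was within the standard errors of miR-1983. The same 5 were nearest when library size alone was used for scaling.

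**Figure D4:**
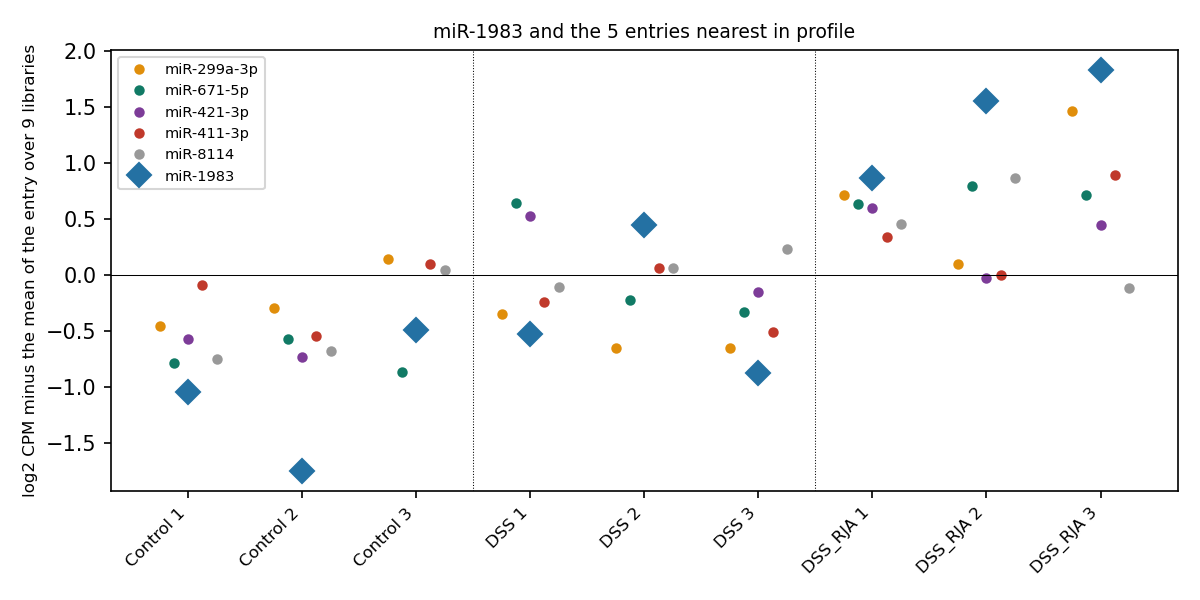
log2 CPM of miR-1983 (blue diamonds) and of the 5 entries nearest to it in profile, each with its mean over the 9 libraries taken away, by library; dotted lines separate the groups. miR-1983 spans -1.75 (Control 2) to 1.83 (DSS_RJA 3), a wider range than that of the other 5.

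Since miR-1983 lies on a tRNA gene, it was set beside entries that are known or reported to be made in other ways than usual miRNAs, or that were registered beside it. This list of 20 entries had 18 in the table and 11 tested. None of the 11 rose or fell in any of the 3 comparisons (edgeR; DESeq2 also called none). At an unadjusted p under 0.05 there were 1, 1 and 2, in DSS_RJA relative to DSS, in DSS_RJA relative to Control and in DSS relative to Control. Over all 433 entries 61 (14.1%), 62 (14.3%) and 143 (33%) were under that level and 0.231%, 0% and 3.93% were called, so the counts in the list do not set it apart. The median log2 fold changes were -0.06, 0.06 and 0.25, and those of all 433 entries were 0.02, 0.03 and 0.01.

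miR-320-3p and miR-484, which come from short hairpins that need Dicer but not Drosha, had log2 fold changes of -0.07 ± 0.17 and 0.27 ± 0.23 relative to Control in DSS_RJA. miR-1839-5p, from a small nucleolar-type RNA, was at -0.15 ± 0.20, and its other arm at 0.01 ± 0.25. miR-877-5p and miR-1224-5p, both mirtrons that are released by splicing, were at 0.06 ± 0.24 and 0.33 ± 0.57, and miR-877-3p at 0.02 ± 0.53. The arms of miR-1981 were at 0.53 ± 0.18 and 0.62 ± 0.29, the highest of the list. miR-664-5p and miR-664-3p, from the small nucleolar RNA Snora36b, were at 0.26 ± 0.32 and -0.37 ± 0.33. Relative to DSS the list ran from -0.65 to 0.32. miR-1983 was chosen for its high values, so a higher value than those of the list is no finding.

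The 12 other mature sequences that overlapped small nucleolar or guide RNA genes gave a second set, chosen by position alone. Of these 11 were in the table and 6 were tested. miR-664-5p, miR-664-3p and miR-1291 were also in the list above, so the set was not separate from it. The 6 tested were the arms of miR-664 named above and those of miR-1843a and miR-1843b. None of the 6 rose or fell in any comparison (edgeR and DESeq2), and at an unadjusted p under 0.05 there were 0, 0 and 1. With 6 entries, and the shares over all entries given above, these counts say nothing particular about the set. In DSS_RJA relative to Control they ranged from -0.54 to 0.26 with a median of -0.19, and relative to DSS from -0.61 to 0.19 with a median of 0.05. The 4 arms of miR-1843a and miR-1843b among them come from near-identical genes and are uncertain as separate values. Only the 962 of 1126 mouse-named entries that matched a RefSeq mature sequence could be placed, and among these miR-1983 was the 1 on an annotated tRNA gene. The other entries, with the 29 that the authors numbered themselves, were not searched, and no comparison among entries from tRNA genes was made.

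The makeup of the colon samples also differed between libraries, and in bulk RNA fewer cells of a type and less RNA per cell cannot be told apart. The summed level of 10 epithelial miRNAs was 83333 to 98482 TPM in Control and 8856 to 39801 TPM in DSS. In DSS_RJA 1, 2 and 3 it was 85729, 53520 and 9977 TPM, while miR-1983 was at 7.85, 15.4 and 18.5 TPM. Within DSS_RJA miR-1983 was thus lowest where the epithelial level was highest. Within DSS it was highest in DSS 2, where the epithelial level was also the highest of the group. No epithelial marker was at 0 in any library, and their part in the level of miR-1983 was not tested.

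The 4 leukocyte miRNAs (both arms of miR-223 and of miR-142a) summed to 44.2 to 75.9 TPM in Control and 121.3 to 262.6 TPM in DSS. Those of miR-142a are not particular to myeloid cells. In DSS relative to Control their log2 fold changes were 0.68 and 0.43, against 2.64 and 2.47 for miR-223. In DSS_RJA 1, 2 and 3 the 4 summed to 38.8, 74.4 and 219 TPM, in the same order as miR-1983. Within DSS the library with the most miR-1983, DSS 2, had the lowest sum of the 4, and the 2 miRNAs differed in this. Both arms of miR-223 were lowest in DSS 2, at 37.1 and 10.0 CPM. Both arms of miR-142a were lowest in DSS 3, at 13.6 and 33.1 CPM, against 20.2 and 41.8 CPM in DSS 2. DSS_RJA 1 and DSS_RJA 2 had sums below the range of DSS and more miR-1983 than every DSS library. For miR-142a-3p alone, DSS_RJA 2 at 14.1 CPM was not below DSS 3 at 13.6 CPM. None of the 4 was at 0, and their part was not tested. Smooth muscle miRNAs, with 6 members and none at 0, summed to 673549 to 720316 TPM in Control, 685688 to 772095 in DSS and 697142 to 727927 in DSS_RJA. Most of this sum was miR-143-3p, which took 66.4% to 75.5% of each library. On TMM-scaled CPM it had 765048 to 817206 in Control, 604373 to 637520 in DSS and 664941 to 771584 in DSS_RJA. In DSS relative to Control 5 of the 6 log2 fold changes were negative, with a median of -0.23 against 0.01 over all tested entries.

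Leaving out single libraries showed how far the change of miR-1983 rested on each. Relative to DSS the log2 fold change was 2.24 without DSS 2, the highest DSS library, and 1.49 without DSS 3. Relative to Control it was 3.04 without Control 3 and 2.35 without Control 2, the library with 9 counts. Without DSS_RJA 1, 2 and 3 it was 1.97, 1.70 and 1.53 relative to DSS, and 2.89, 2.59 and 2.45 relative to Control. In DSS relative to Control it was 0.40 without DSS 2 and 1.31 without Control 3. It was 0.61 without Control 2. Without DSS 2 the value for DSS relative to Control thus moved from 0.88 to 0.40, and that for DSS_RJA relative to DSS from 1.76 to 2.24. On the log2 scale these moves were alike, and as a share of the value the first was larger.

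**Figure D5:**
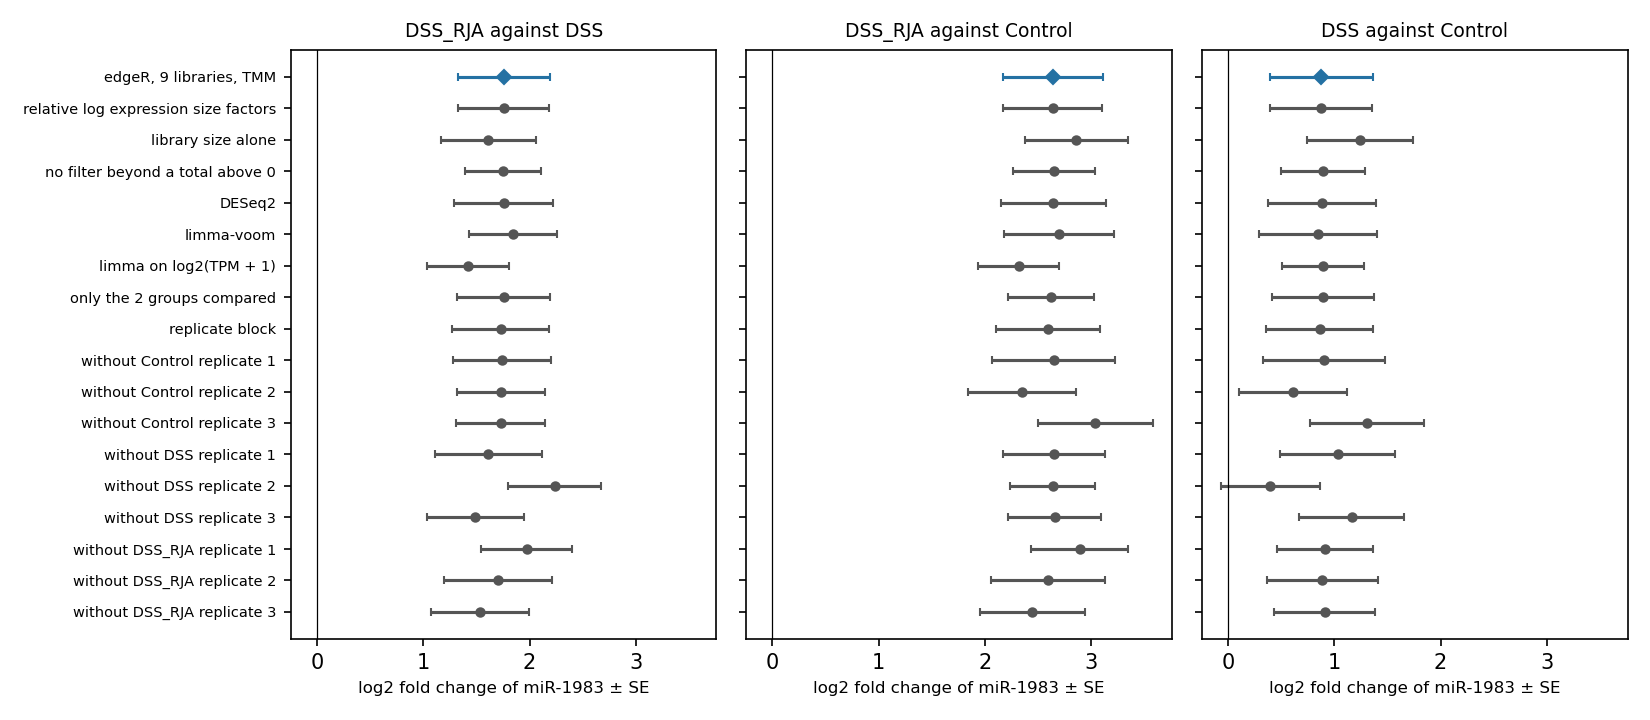
log2 fold change of miR-1983 with its standard error (horizontal axis) in the 3 comparisons, for the reported fit (blue diamond) and for 17 other settings, 9 of which leave out 1 library each. All values are above 0; relative to DSS they run from 1.42 to 2.24, relative to Control from 2.32 to 3.04, and for DSS against Control from 0.40 to 1.31.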

How the data were processed

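Small RNA of 9 mouse colon samples was sequenced. Per the labels' protocols, libraries were made with an NEBNext small RNA kit by adaptor ligation and PCR, with inserts of 18 to 40 bp. Bowtie and DESeq are named in the submitters' processing notes, with neither version nor role. How many mismatches were allowed, how reads matching several places were counted, and which build and annotation served, are all not given in the sources used here. Per the file headers, the authors deposited raw read counts per entry and TPM values. The deposited TPM are counts over library totals, times 1000000, with a largest difference of 4.66e-10.

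miR-1983 and the lists of entries were chosen with earlier results of these data known. Counts were analysed with edgeR 4.0.16 in R 4.3.3: filterByExpr with a minimum count of 10, TMM scaling, and the quasi-likelihood test with 1 mean per group over 9 libraries (6 residual degrees of freedom). Adjustment was by Benjamini-Hochberg over the 433 entries tested. The 433 entries held 99.99% of counts. Standard errors are approximate, from the fold change and the F statistic. log2 CPM used a prior count of 2. The named entries were miR-1983, the 5 nearest in profile, the extremes of its 50 neighbours in abundance, and the tested members of the list of unusual entries. The alternatives used DESeq2 1.42.0 and limma 3.58.1, other scalings and filters, fewer libraries and a block. Sequences matched by name for 962 of 1126 entries with mouse names, and the fold used RNAfold 2.7.2 with default settings. With 3 libraries against 3 an exact permutation test cannot go below 0.1, so none was run.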

Additional observations from a re-analysis of the deposited data

How the results depend on the processing

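The log2 fold change of miR-1983 was positive in all 17 other fits of each comparison, and each value moved by less than the pooled SD between replicates (0.61 on the log2 scale). That SD is of single libraries and is larger than the standard errors of the 3 changes (0.43, 0.47 and 0.48). The fits reuse the libraries in which the entry was chosen, so the sign in the comparisons with DSS_RJA is no support. Leaving out 1 library at a time gave 1.49 to 2.24 relative to DSS, 2.35 to 3.04 relative to Control, and 0.40 to 1.31 for DSS relative to Control. The other 8 settings gave 1.42 to 1.84, 2.32 to 2.86 and 0.85 to 1.24. miR-1983 passed an adjusted p of 0.05 relative to DSS in 2 of the 17 fits (DESeq2 and no filter), and relative to Control in 4 (also with only the 2 groups compared, and without DSS 2). Library size alone moved the median of all entries from 0.02, 0.03 and 0.01 to -0.16, 0.22 and 0.39 in the 3 comparisons. Changes in TPM are shifted in the same directions. The log2 fold changes of miR-1983 with library size alone were 1.61, 2.86 and 1.24. miR-1983 ranked 1 of 21 and 2 of 101 relative to DSS among the 20 and the 100 nearest entries, and 1 in both relative to Control.

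Numbers of entries called moved more, and the fits did not all test the same 433 entries. The fit with no filter tested 1155 and DESeq2 432. Those with only the 2 groups tested 408 to 418, and those leaving out 1 library 438 to 453. For DSS_RJA against DSS, 1 was called, against 2 with relative log expression size factors, 40 with no filter, 15 with DESeq2, 0 with limma-voom (66 at an unadjusted p under 0.05), 2 on log2(TPM + 1), 0 with only the 2 groups (48) and 0 with the replicate block (50). For DSS_RJA against Control, 0 were called, against 19 with no filter, 2 with DESeq2 and 2 with only the 2 groups. For DSS against Control, 17 were called, against 73 with library size alone, 73 with no filter, 65 with DESeq2, 38 with limma-voom, 79 on log2(TPM + 1), 88 with only the 2 groups and 4 with the replicate block. Leaving out 1 library gave 0 to 37, 0 to 1 and 3 to 90 calls in the 3 comparisons. In the first it was 37 without DSS_RJA 3 and 0 without any other library; in the second it was 1 without DSS 1 or DSS 2. In the last it was 3 without Control 1 or 3, 6 without Control 2, 5, 46 and 11 without DSS 1, 2 and 3, 47 without DSS_RJA 1 and 90 without DSS_RJA 3. The cause was not tested.

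The replicate numbers did not pair the samples: correlations of same-numbered deviations were -0.46 to 0.18, and the own number was highest in 4 of 18 checks. With the replicate block the log2 fold changes of miR-1983 were 1.73, 2.59 and 0.86. At 9 to 114 counts per library, depth limits how closely a level of miR-1983 is known, and differences as small as that of DSS_RJA 1 and DSS 2 were within counting error.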
